A study of Mus musculus with 2 samples.

Results

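Alcohol and aldehyde oxidation genes were compared between small hepatocytes (SHs) and mature hepatocytes (MHs) of the mouse liver. The set held 10 of the 43280 gene symbols counted in both libraries, taken by symbol from a fixed list: Cyp2e1, the alcohol dehydrogenases Adh1, Adh4, Adh5 and Adh7, the aldehyde dehydrogenases Aldh2, Aldh1a1, Aldh1b1 and Aldh3a2, and catalase (Cat). All 10 were present in both files and all had at least 10 reads over both libraries. One RNA-seq library was made of each kind of cell, both from untreated C57BL6 animals labelled as 20 weeks old, while the methods give a younger range. According to the methods 3 mice were used, and by the labels MHs and SHs were taken from the same animals. Cells were freshly isolated by collagenase perfusion. By the methods, the fractions were parted by centrifugation, MHs from the pellet of a slow spin and SHs from its supernatant after a faster one, and dead cells were taken out of both with Percoll. MHs were then used unsorted, whereas SHs, which the labels describe as hepatocyte progenitors, were also gated by FACS for ICAM-1+ cells that were CD31-, CD45- and EpCAM-. The gate against CD31, CD45 and EpCAM, markers of endothelial, blood and biliary cells, applied to SHs only, so cell type cannot be told apart from the spin and the sort.

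Ethanol is oxidised in hepatocytes in a pair of steps. Cytosolic alcohol dehydrogenases carry out most of the first step, to acetaldehyde, and the microsomal cytochrome P450 CYP2E1 and peroxisomal catalase can also carry it out. Aldehyde dehydrogenases, with mitochondrial ALDH2 foremost, then turn acetaldehyde into acetate. CYP2E1 is induced by ethanol, releases reactive oxygen and is known as an enzyme of pericentral hepatocytes, those around the central vein.

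The sequences before the starts of the 3 genes that differed by 2-fold or more between SHs and MHs (Cyp2e1, Aldh3a2 and Aldh1b1) are shown here because those genes carry the contrast within the set. Each window is the 250 bases before the RefSeq start (GRCm38.p6), read 5′ to 3′ on the strand of the gene, at chr7:140763569-140763818 on the plus strand for Cyp2e1, chr11:61267187-61267436 on the minus strand for Aldh3a2 and chr4:45798772-45799021 on the plus strand for Aldh1b1. Capitals mark the motifs found.
Cyp2e1: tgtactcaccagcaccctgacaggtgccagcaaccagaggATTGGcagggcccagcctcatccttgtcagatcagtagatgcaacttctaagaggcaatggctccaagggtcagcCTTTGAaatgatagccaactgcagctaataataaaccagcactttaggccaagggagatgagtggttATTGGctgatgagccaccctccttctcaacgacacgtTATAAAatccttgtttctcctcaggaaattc
Aldh3a2: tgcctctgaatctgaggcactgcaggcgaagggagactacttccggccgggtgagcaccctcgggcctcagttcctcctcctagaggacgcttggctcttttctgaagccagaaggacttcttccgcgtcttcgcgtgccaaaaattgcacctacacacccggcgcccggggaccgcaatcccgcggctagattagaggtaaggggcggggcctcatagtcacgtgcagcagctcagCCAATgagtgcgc
Aldh1b1: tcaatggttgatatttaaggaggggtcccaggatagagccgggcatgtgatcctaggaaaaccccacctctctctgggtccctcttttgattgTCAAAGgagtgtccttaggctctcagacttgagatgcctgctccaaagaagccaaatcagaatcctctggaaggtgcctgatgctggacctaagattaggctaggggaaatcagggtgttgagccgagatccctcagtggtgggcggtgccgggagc

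A set of 6 short motifs was searched on both strands, and no sites of different motifs overlapped. In positions counted back from -1, the last base before the start, the Cyp2e1 window held a TATA box (TATAAA) at -31 to -26, a TCF/LEF core (CTTTGA) at -135 to -130, and CCAAT boxes on the minus strand, read as ATTGG above, at -210 to -206 and at -68 to -64. The Aldh1b1 window held the TCF/LEF core once, on the minus strand (TCAAAG) at -157 to -152, and the Aldh3a2 window held only a CCAAT box, at -13 to -9. RefSeq windows were found for 9 of the 10 genes, 11 windows in all, since Adh5 and Aldh1a1 had more than 1 start. The TCF/LEF core was in windows of 3 of these 9 genes (Cyp2e1, Aldh1a1 and Aldh1b1), against 13.8% of all 32851 windows of the same length. The CCAAT box (CCAAT) was in 6 genes against 33.8% of windows, the TATA box in 3 genes against 12.4%, and the nuclear receptor half-site (AGGTCA) in Adh4 and Cat against 14.0%. A C/EBP half-site (TTGCAA, which reads the same on both strands) was in Adh1 alone against 5.34%, and the HNF1 half-site (GTTAAT) was in none against 6.43%. Members were counted by gene, with a match in any window enough, whereas the percentages are per window. A gene with more than 1 start thus had more bases to match. The genes with the TCF/LEF core thus included the gene with the lowest ratio of SHs over MHs, the gene with the highest ratio and a gene between them. A match of letters is no evidence of a binding site.

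Counted reads numbered 16979136 for MHs and 42356444 for SHs, with 19954 and 23512 genes that had a read. Reads are given as reads per 1000000 counted reads (RPM), and levels of different genes are ordered per exon length, as RPKM. Shares of reads between genes are not corrected for length, and they are set only against the same share in the other library. Ratios are log2 values of SHs over MHs after 0.5 reads were added to each count, with a 95% Clopper-Pearson interval of the read share that covers counting error only. With 1 library per condition there was no replicate check and no test between conditions. In these bulk libraries, fewer cells with a transcript and less of it per cell cannot be told apart. Hepatocyte markers were alike in both libraries, with 0 of 6 genes 2-fold apart and a median log2 ratio of 0.03. Of 12 pericentral markers, 11 were lower in SHs by 2-fold or more, with a median of -1.85 (-4.23 to -0.99) and a summed level that went from 1642 RPM in MHs to 624 RPM in SHs, none of them at 0 reads. All 12 periportal markers had intervals above 0, with a median of 0.37 (0.02 to 0.56) and a summed level of 16453 RPM in MHs and 19462 RPM in SHs. Of 10 endothelial markers, all 10 were lower in SHs by 2-fold or more, and their summed level was 104 RPM in MHs and 4.84 RPM in SHs. Summed markers of macrophages (16.9 and 0.897 RPM over 8 genes) and stellate cells (20.2 and 2.34 RPM over 9 genes) were also lower in SHs. Those of lymphocytes were 0.530 and 0.165 RPM over 5 genes, and those of cholangiocytes were 14.0 and 14.1 RPM over 6 genes. The cholangiocyte sums were nearly all Sox9 (5.42 RPM for MHs, 7.67 for SHs) and Spp1 (8.01 and 6.40), which went opposite ways. Epcam, whose protein was gated against in SHs only, was near the floor (6 reads for MHs, 1 for SHs). Krt19, Krt7 and Cftr reached at most 1 read per library. The like sums of cholangiocyte markers therefore do not show that biliary content was alike. One endothelial marker, 1 macrophage marker, 1 cholangiocyte marker and 2 lymphocyte markers were at 0 reads in SHs, and 4 lymphocyte markers were at 0 in MHs. The part of these differences in the results below was not tested.

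Among the 10 genes, Cyp2e1 and Aldh3a2 were lower in SHs by at least 2-fold, Aldh1b1 was at least 2-fold higher, and the other 7 lay within 1.5-fold of equal. Over the 15521 genes with at least 10 reads, 4.46% passed on the lower side and 2.00% on the higher side, in each case 2-fold or more with the interval on the same side of 0. Among the 5055 genes with at least 1000 reads, a depth that 9 of the 10 genes reached, the shares were 0.613% and 0.218%, which is 31 and 11 genes. The intervals lay below 0 for 3 genes (Cyp2e1, Aldh3a2 and Aldh1a1) and above 0 for 5 (Aldh2, Adh5, Adh4, Cat and Aldh1b1), and those of Adh1 and Adh7 included 0. Over all genes with at least 10 reads, 15.5% had intervals below 0 and 16.8% above 0, and over those with at least 1000 reads the shares were 21.1% and 31.2%. The median log2 ratio of the 10 genes was 0.07, beside 0.02 for all genes with at least 10 reads, whose central range from the 5th to the 95th percentile was -1.14 to 0.86. For genes with at least 1000 reads the median was 0.04 and that range -0.34 to 0.33, so Cyp2e1, Aldh3a2, Aldh1a1 and Aldh1b1 lay outside it.

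**Figure D1:**
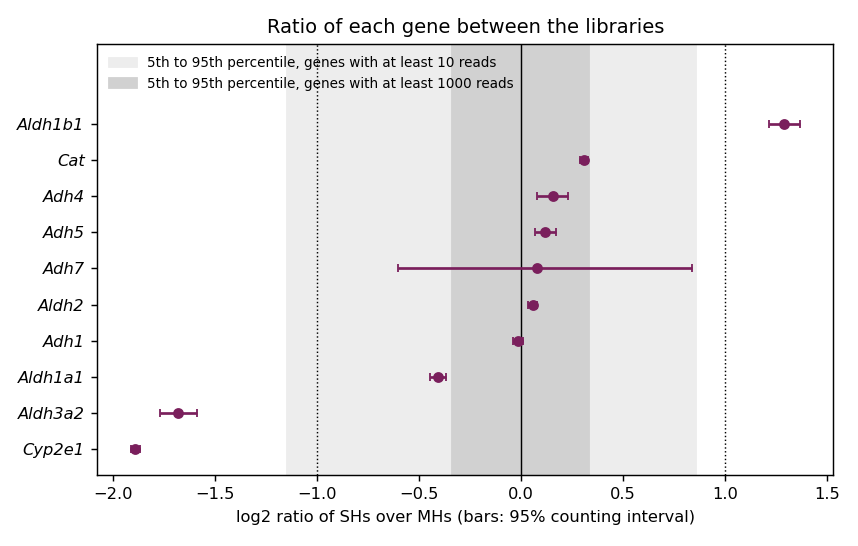
Log2 ratio of SHs over MHs for each of the 10 genes, with 95% Clopper-Pearson intervals that cover counting error only, drawn over the spread of all genes. Cyp2e1 at -1.89 and Aldh3a2 at -1.68 sit far to the left, Aldh1b1 at 1.29 to the right, and the interval of Adh7 is the widest.

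Of the genes for the first step, Adh1 encodes the main ethanol-oxidising dehydrogenase of the mouse liver. It had 19601 reads in MHs and 48399 in SHs, which is 1154 RPM in MHs and 1143 RPM in SHs. The log2 ratio was -0.01 (-0.04 to 0.01), so the libraries did not differ beyond counting error at this depth, and the interval reaches from 1.03-fold lower to 1.01-fold higher. Adh1 (chromosome 3, 138260991 to 138290698, plus strand) had the same rank among the Adh genes in both libraries, the highest per length, at 517 RPKM in MHs and 512 RPKM in SHs. A stretch of its transcript is shared with the pseudogene Adh6-ps1, in 4 of 1443 windows of 50 bases (0.277%).

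Adh4 (chromosome 3, 138415466 to 138430892, plus strand), whose enzyme oxidises retinol and longer alcohols as well as ethanol, had 1921 reads in MHs and 5346 in SHs, or 113 and 126 RPM. The log2 ratio was 0.16 (0.08 to 0.23), slightly higher in SHs. Adh5 (chromosome 3, 138443093 to 138455499, plus strand) encodes the glutathione-dependent formaldehyde dehydrogenase, which has little activity on ethanol and also reduces S-nitrosoglutathione. It had 3951 reads in MHs and 10719 in SHs, which gave 233 and 253 RPM and a log2 ratio of 0.12 (0.07 to 0.17). Ordered by ratio, the neighbours Aldh2 and Adh7, Adh7 and Adh5, and Adh5 and Adh4 had overlapping intervals, so they were not separated from each other.

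Adh7 (chromosome 3, 138217760 to 138233382, plus strand), best known as the dehydrogenase of the stomach lining with high activity on retinol, was near the floor of the set, with 24 reads in MHs and 64 in SHs. Its level of 1.41 RPM in MHs and 1.51 RPM in SHs gave a log2 ratio of 0.08 (-0.60 to 0.84), an interval that reaches from 1.52-fold lower to 1.79-fold higher. Its span overlaps that of an antisense gene, 0610031O16Rik, which had 369 reads in MHs and 900 in SHs. Overlap of their exons was not examined, and whether the counting used strand is not stated. Whether reads of Adh7 and of that gene were kept apart is therefore not known. A count of 3 reads, taken as the limit of detection, is 0.177 RPM in MHs and 0.0708 RPM in SHs.

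All 4 Adh genes of the set and the other 3 of the family, Adh6a, Adh6b and Adh6-ps1, lie side by side on 1 strand of chromosome 3, from 138217760 to 138455499, a span of 237740 bases (mm10, GENCODE M21). Along this cluster, Adh1, Adh4, Adh5 and Adh7 ranged from -0.01 to 0.16 in ratio, and Adh6-ps1 was lower in SHs. It had 763 reads in MHs and 1075 in SHs, which gave a log2 ratio of -0.82 (-0.96 to -0.69). Adh6a had 1 read in each library and Adh6b had none. Summed over the 4 Adh genes, the share of counted reads was 0.150% in MHs and 0.152% in SHs, with 0.02 as the log2 ratio (-0.00 to 0.04).

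Cyp2e1 (chromosome 7, 140763739 to 140774987, plus strand) was the gene of the set with the lowest ratio. The library of MHs had 38092 reads and that of SHs 25675, although SHs were sequenced more deeply. At 2243 RPM in MHs and 606 RPM in SHs it was 3.70-fold lower in SHs (3.64 to 3.76), and the log2 ratio was -1.89 (-1.91 to -1.87). Among the genes with at least 1000 reads it ranked 5 from the lowest. The 5 such genes with the nearest ratios were Cyp2c37 (-1.92), Oat (-1.98), Lect2 (-1.78), Gulo (-1.74) and Aldh3a2 (-1.68). Of these, Oat, Lect2 and Gulo were on the list of pericentral markers, whose median was -1.85. Cyp2e1 shared 85 of 1784 windows of 50 bases (4.76%) with other genes, 109 of them, so a small part of its sequence is repeated elsewhere.

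The other P450 enzymes of the list of ethanol-inducible and oxidative-stress genes went the same way for 3 of 3. Cyp2a5, a coumarin hydroxylase, had 1254 reads in MHs and 582 in SHs (log2 ratio -2.43, -2.57 to -2.28). Cyp3a11, the most-read of the list, had 61509 and 111388 reads (-0.46, -0.48 to -0.45), and Cyp1a2 had 782 and 757 (-1.37, -1.51 to -1.22). Cyp1a2 was also on the list of pericentral markers, so its value was counted in both lists. The paper describes both Cyp3a11 and Cyp1a2 as high in hepatocytes near the central vein. It also measured Cyp2e1, Cyp3a11 and Cyp1a2 by quantitative PCR in 4 paired sets of SHs and MHs. By a paired t-test the paper reports all of them as significantly lower in SHs. Of the genes of that list with roles in oxidative stress, Nqo1 had 43 and 113 reads (0.06, -0.44 to 0.62) and Hmox1 had 71 and 138 (-0.36, -0.78 to 0.07), and both intervals included 0. The 4 genes listed as P450 electron donors lay closer to 0 than Cyp2e1. Por, the P450 reductase, had 2999 reads in MHs and 5737 in SHs (-0.38, -0.45 to -0.32), and Cyb5a, the cytochrome b5 of the endoplasmic reticulum, had 8358 and 16947 (-0.30, -0.34 to -0.26). Cyb5r3, which reduces cytochrome b5, was the highest of the 4 at 0.31 (0.26 to 0.36), and Cyb5b was at -0.02 (-0.06 to 0.03).

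Cat (chromosome 2, 103453849 to 103485160, minus strand) encodes catalase, which breaks down hydrogen peroxide in peroxisomes and can use it to oxidise ethanol. It had 28228 reads in MHs and 87227 in SHs, or 1663 and 2059 RPM, and was 1.24-fold higher in SHs, at a log2 ratio of 0.31 (0.29 to 0.33). Per exon length, Cat had the highest level of the set in SHs (788 RPKM) and Cyp2e1 the highest in MHs (1040 RPKM). A list of 14 genes set beside catalase, mostly of peroxisomes, was counted as written. It held Pmp2, a myelin protein gene at 0 reads in both libraries, and Prdx1, Gpx1 and Sod1, whose proteins are not confined to peroxisomes. Of 12 genes with at least 10 reads, 5 had intervals below 0, with Prdx1 among them, and 4 above 0, with Gpx1 among them. Over all genes with at least 10 reads the shares were 15.5% and 16.8%. None of the 12 listed genes was 2-fold apart, and their median was -0.02. Uox, the urate oxidase whose reaction makes hydrogen peroxide, was the highest and the most-read at 0.35 (0.33 to 0.36), and Pex13, a peroxisome import protein, was the lowest at -0.39 (-0.53 to -0.24).

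These shifts changed the balance of the first-step genes. Of the reads of Cyp2e1 and Adh1 together, Cyp2e1 took 66.0% in MHs and 34.7% in SHs, from 1.94 reads per read of Adh1 to 0.530. Against Cat, Cyp2e1 went from 57.4% (57.1 to 57.8) to 22.7% (22.5 to 23.0). The share of Cat against Adh1 was 59.0% in MHs and 64.3% in SHs. Because each share is taken within a library, library scaling does not enter it. Summed over Adh1, Cyp2e1 and Cat, reads were 0.506% of the library in MHs and 0.381% in SHs, and their log2 ratio was -0.41 (-0.42 to -0.40).

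Of the genes for the second step, Aldh2 (chromosome 5, 121566027 to 121593824, minus strand) encodes the mitochondrial enzyme that clears most acetaldehyde. It had 22337 reads in MHs and 58019 in SHs, or 1316 and 1370 RPM, with a log2 ratio of 0.06 (0.04 to 0.08). The interval lay above 0, but the difference was 1.04-fold. The share of Aldh2 against Adh1 was 53.3% (52.8 to 53.7) in MHs and 54.5% (54.2 to 54.8) in SHs.

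Aldh1b1 (chromosome 4, 45799022 to 45804604, plus strand), a close relative of Aldh2 whose mitochondrial enzyme also takes acetaldehyde, had the highest ratio of the set. Its reads numbered 1606 in MHs and 9806 in SHs. At 94.6 RPM in MHs and 232 RPM in SHs it was 2.45-fold higher in SHs (2.32 to 2.58), and the log2 ratio was 1.29 (1.22 to 1.37). Among the genes with at least 1000 reads it ranked 6 from the highest, and the 5 such genes nearest to it were Gm14236 (1.24), Mt1 (1.23), Yam1 (1.36), Gm24105 (1.17) and Socs3 (1.48). Mt1 encodes a metallothionein and Socs3 an inhibitor of cytokine signalling. In reads, Aldh1b1 went from 0.0719 per read of Aldh2 in MHs to 0.169 in SHs, which is 6.71% (6.39 to 7.03) and 14.5% (14.2 to 14.7) of both. Summed with Aldh2, the log2 ratio was 0.18 (0.16 to 0.20). The transcript of Aldh1b1 shared no window of 50 bases with another gene.

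Aldh3a2 (chromosome 11, 61223417 to 61267464, minus strand) encodes the fatty aldehyde dehydrogenase of the endoplasmic reticulum, whose substrates are long-chain aldehydes. Reads numbered 2269 in MHs and 1770 in SHs. At 134 RPM in MHs and 41.8 RPM in SHs it was 3.20-fold lower in SHs, and its log2 ratio was -1.68 (-1.77 to -1.59). It ranked 8 from the lowest among genes with at least 1000 reads, and shared no window of 50 bases with another gene. Against Aldh2, its share went from 9.22% (8.86 to 9.59) in MHs to 2.96% (2.83 to 3.10) in SHs. Set against each other, Aldh1b1 had 0.708 reads per read of Aldh3a2 in MHs and 5.54 in SHs, from 41.4% to 84.7% of both. This pair joins the highest ratio of the set (1.29) to the low ratio of Aldh3a2, so a wide swing follows from the single ratios.

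Aldh1a1 (chromosome 19, 20492715 to 20643465, plus strand) encodes a cytosolic enzyme that makes retinoic acid from retinal and can take acetaldehyde. It had 7461 reads in MHs and 14051 in SHs, or 439 and 332 RPM, and was 1.32-fold lower in SHs, at a log2 ratio of -0.41 (-0.45 to -0.36). Its close copy Aldh1a7 is 88.8% identical to it over 2036 aligned transcript columns, and 151 of the 2309 windows of 50 bases of Aldh1a1 (6.54%) occur in Aldh1a7, so reads may be split between them. Aldh1a7 had 3383 reads in MHs and 8961 in SHs (log2 ratio 0.09, 0.03 to 0.14). Of the reads of both, Aldh1a1 took 68.8% (67.9 to 69.7) in MHs and 61.1% (60.4 to 61.7) in SHs. With both summed, the log2 ratio was -0.23 (-0.27 to -0.20), still lower in SHs but by less.

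**Figure D2:**
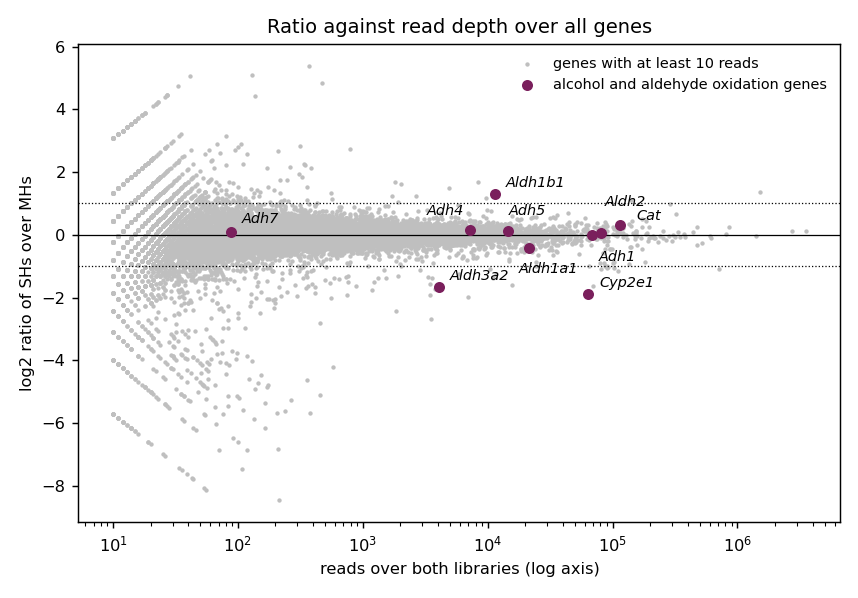
Log2 ratio of SHs over MHs against reads over both libraries (log axis), with 1 point per gene with at least 10 reads and dotted lines at 2-fold. Cyp2e1, Aldh3a2 and Aldh1b1 lie outside the narrow band of genes of like depth, while Adh7 at 88 reads lies inside a wide one.

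Summed over the 4 Aldh genes, reads were 0.198% of the library in MHs and 0.197% in SHs, and the log2 ratio was -0.01 (-0.02 to 0.01). With the library total as scaling, the sum of the 4 thus did not differ beyond counting error. Taken singly, 3 of them, Aldh1b1, Aldh3a2 and Aldh1a1, did so by 1.32-fold or more. All 10 genes took 0.739% of reads in MHs (125490 reads) and 0.616% in SHs (261076 reads), and the log2 ratio of the sum was -0.26 (-0.27 to -0.25). Without Cyp2e1 the other 9 took 0.515% and 0.556%, a log2 ratio of 0.11 (0.10 to 0.12), so the lower total in SHs rested on Cyp2e1. Within the set, Cyp2e1 took 30.4% in MHs and 9.83% in SHs. Cat went from 22.5% to 33.4%, Aldh2 from 17.8% to 22.2%, Adh1 from 15.6% to 18.5% and Aldh1b1 from 1.28% to 3.76%.

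**Figure D3:**
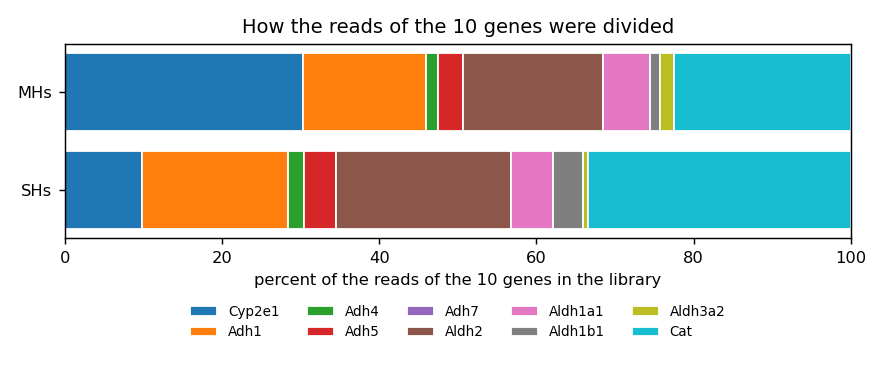
Share of each gene in the reads of all 10 genes, as percent, in the library of MHs and of SHs. Cyp2e1 shrinks from 30.4% to 9.83%, Cat grows from 22.5% to 33.4%, and Adh7 is too thin to be seen.

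Per exon length, the order of levels in MHs was Cyp2e1 (1040 RPKM), Cat (636), Adh1 (517), Aldh2 (257), Aldh1a1 (89.0), Adh4 (78.0), Adh5 (43.0), Aldh1b1 (41.2), Aldh3a2 (23.8) and Adh7 (0.373). Only the neighbours Adh5 and Aldh1b1 had overlapping intervals there. In SHs the order was Cat (788 RPKM), Adh1 (512), Cyp2e1 (281), Aldh2 (267), Aldh1b1 (101), Adh4 (87.0), Aldh1a1 (67.2), Adh5 (46.8), Aldh3a2 (7.44) and Adh7 (0.399), and no neighbours overlapped. Lengths were the union of all exons of a gene, and by them Cyp2e1 moved from the first place to the third. Aldh1b1 moved from the eighth to the fifth. Some places depended on the length chosen. With the longest transcript as length Cyp2e1 was at 1224 RPKM in MHs and 331 RPKM in SHs, and Adh1 at 774 and 766. In SHs Aldh2 (354) then lay above Cyp2e1, and Aldh1a1 (141) above Aldh1b1 (101). In MHs Adh1 then lay above Cat (636), and Aldh3a2 (43.2) above Aldh1b1 (41.2).

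**Figure D4:**
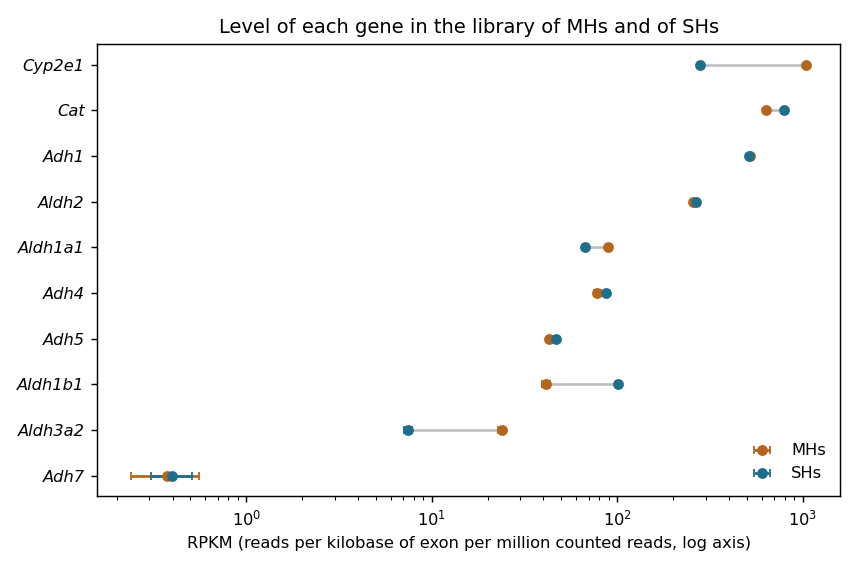
Level of each gene in RPKM (log axis) in the library of MHs and of SHs, joined by a line, with 95% exact Poisson intervals of each count. The levels span from 0.373 RPKM for Adh7 in MHs to 1040 RPKM for Cyp2e1 in MHs, and the longest lines are those of Cyp2e1, Aldh3a2 and Aldh1b1.

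Over all genes with at least 10 reads, 16.8% had intervals above 0 and 15.5% below, and with at least 1000 reads 31.2% and 21.1%. The counts for each list of related genes are to be read beside these shares. Of 16 further Aldh genes counted, 12 had at least 10 reads, of which 7 had intervals above 0 and 1 below. The 1 below was Aldh18a1, which makes a proline precursor, with 8 reads in MHs and 4 in SHs (log2 ratio -2.24, -4.50 to -0.42), and it was also the only one 2-fold lower. The most-read was Aldh1l1, of folate metabolism, with 19980 and 66614 reads (0.42, 0.40 to 0.44). The highest was Aldh3b1, with 13 and 50 reads (0.58, -0.28 to 1.63), whose interval included 0. Of the other Adh genes only Adh6-ps1 and Adhfe1, a mitochondrial hydroxyacid transhydrogenase, had at least 10 reads, and Adhfe1 had 1084 and 2685 reads (-0.01, -0.11 to 0.09).

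Acetate, the product of the second step, is joined to coenzyme A by Acss2, which had 2370 reads in MHs and 5909 in SHs (log2 ratio -0.00, -0.07 to 0.07). Of the 6 acetate and acetyl-CoA genes, 5 had at least 10 reads and none was 2-fold apart. Acly, which makes acetyl-CoA from citrate, was the highest and the most-read, with 7148 and 26360 reads (0.56, 0.53 to 0.60), and Acacb was the lowest at -0.08 (-0.15 to -0.01). The glutathione and formaldehyde partners of Adh5 had intervals above 0 for 3 of 5, with Gss, the glutathione synthetase, the highest at 0.57 (0.45 to 0.68) and Gclc, the lowest and the most-read, at 0.02 (-0.03 to 0.06). Esd, which follows Adh5 in formaldehyde clearance, was at 0.19 (0.12 to 0.26).

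Of 11 aldehyde reductases and oxidases, 8 had at least 10 reads, of which 5 had intervals above 0 and 1, Aox1, had an interval below 0 at -0.35 (-0.43 to -0.28). The most-read was the aldehyde oxidase Aox3, with 23199 reads in MHs and 62222 in SHs (0.10, 0.08 to 0.13). The aldose reductase Akr1b3 was the lowest, with 22 and 40 reads (-0.47, -1.24 to 0.36). The highest was Akr1b7, with 0 reads in MHs and 11 in SHs, which is 1.47-fold higher if MHs are set at the limit of 3 reads. That value leaves out the counting error of the 11 reads. It was called 2-fold higher because MHs had 0 reads. The size of its log2 ratio (3.20) depends on the reads added to each count, and the lower end of its interval was 0.009.

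**Figure D5:**
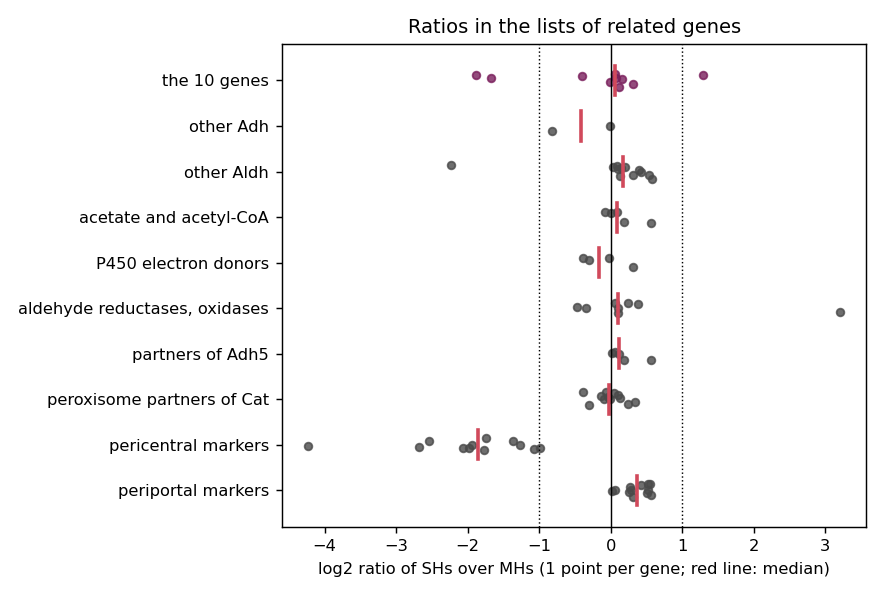
Log2 ratio of SHs over MHs for the 10 genes and for each list of related genes, with 1 point per gene with at least 10 reads, a red line at the median and dotted lines at 2-fold. Pericentral markers spread around a median of -1.85 and periportal markers around 0.37, with Cyp2e1 and Aldh3a2 within the range of the first, while the point at the far right is Akr1b7, with 0 reads in MHs.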

How the data were processed

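The deposited files hold whole-number counts of reads for each gene symbol, not normalized by the authors. The methods state alignment to mm10 in CLC Genomics Workbench and levels as RPKM. The program and annotation behind the deposited counts, and whether they used strand, are not given in the sources used here. Every column of values was used. The 10 genes and all lists were chosen with earlier results of these data known.

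Reads per 1000000 used the library total. Log2 ratios had 0.5 reads added to each count and 95% Clopper-Pearson intervals. Genes counted as 2-fold lower or higher also had the interval on that side of 0. All genes with 10 reads or more, summed over the libraries, gave the background, and 39469 of 43280 symbols matched GENCODE M21 (GRCm38), which gave coordinates and exon lengths. Promoter windows came from RefSeq (GRCm38.p6). All 10 genes are named, and of each other list the highest, the lowest and the most-read gene with at least 10 reads and close copies. For the genes with the lowest and the highest ratio, the 5 nearest genes in ratio with at least 1000 reads are named. Genes named outside this rule (Aox1, Esd, Acss2, Cyb5b and the remaining genes of the ethanol-inducible list) were chosen after their values were seen. Alternatives changed the scaling, the added reads, the read minimum, the fold threshold and the length. Python 3.11.15 with numpy 2.4.6, pandas 2.3.3, scipy 1.17.1 and biopython 1.88 was used, and R 4.3.3 with edgeR 4.0.16 and DESeq2 1.42.0 for scaling factors only. The scripts were checked on simulated counts.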

Additional observations from a re-analysis of the deposited data

How the results depend on the processing

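The log2 ratios of Cyp2e1 (-1.89 to -1.86), Aldh3a2 (-1.68 to -1.65) and Aldh1b1 (1.29 to 1.32) kept their direction and stayed past 2-fold under all 4 other scalings and with 2 reads added. At a fold threshold of 4, 0 genes were lower and 0 higher, and at 1.5 the same counts as at 2 were found. The summed log2 ratio of the 10 genes was -0.23 without the 10 most-read genes in the total and -0.24 with the total over protein-coding genes. Those scalings moved all genes by 0.03 and 0.02, and the edgeR and DESeq2 factors by 0.01. The summed log2 ratios were 0.02 (-0.00 to 0.04) for the Adh genes and -0.01 (-0.02 to 0.01) for the Aldh genes. Whether these intervals include 0 therefore depends on the scaling. Without the 10 most-read genes Adh1 went from -0.01 to 0.02, where its interval was not called either way. Leaving out genes under 1000 reads, an alternative chosen after seeing the data, removed Adh7 and changed no count of members. Among the other pathway lists, without the ethanol-inducible one, 1 gene was past 2-fold on the lower side (Aldh18a1) and 1 on the higher side (Akr1b7). Both counts were 0 with a minimum of 100 or 1000 reads, since both genes have fewer. The lower count was 2 with no minimum and 2 at a threshold of 1.5. No paired analysis was possible because each condition had a single library. Depth limits Adh7, at 24 and 64 reads, and any spread between animals or isolations cannot be measured from these libraries. The paper's quantitative PCR of SHs against MHs over repeated isolations covered Cyp2e1 but none of the other genes of the set.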
